A study of Mus musculus with 13 samples.

Results

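The genes described here are 10 genes of the NRF2 oxidative stress response, *Nfe2l2*, *Keap1*, *Nqo1*, *Gclc*, *Gclm*, *Slc7a11*, *Txnrd1*, *Srxn1*, *Hmox1* and *G6pdx*, in mouse NUT carcinoma (mNC). They were chosen by name as members of the pathway and not by a rule on their values, although earlier results of these data were known. They are 10 of the 55332 genes with values. All 10 had enough counts to be tested in every comparison. RNA from 13 bulk tumors was sequenced, 4 oral *Sox2* WT (KRT14-Cre; NCT+/-), 2 oral *Sox2* KO (labelled KRT4Cre; NCT+/-; Sox2fl/fl), 4 pancreatic *Sox2* WT (Pdx1-Cre; NCT+/-) and 3 pancreatic *Sox2* KO tumors (Pdx1-Cre; NCT+/-; Sox2fl; fl). Every group, the WT tumors included, carries the NCT allele, with which Cre recombinase starts the tumor through a chromosomal translocation. The study asked what the loss of *Sox2*, a transcription factor of stem and squamous cells, changes in such tumors. The oral KO labels read KRT4Cre, although the methods of the study describe KRT14-Cre for all oral tumors. Deletion takes place in cells of the Cre lineage alone, so that stroma and other host cells in a tumor keep *Sox2*. Ages and treatments were not given, and nothing says that the tumors of a group came from separate mice, so that p-values measure the spread between these tumors.

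NRF2, the product of *Nfe2l2*, is a transcription factor that is held back by KEAP1, an adaptor that brings it to a CUL3 ubiquitin ligase and so to the proteasome. Oxidants and electrophiles modify cysteines of KEAP1, whereupon NRF2 accumulates, pairs with small MAF proteins and binds antioxidant response elements (AREs) near genes for glutathione synthesis, thioredoxin recycling, NADPH supply and detoxification. Squamous carcinomas of several organs are known for mutations that activate the pathway. Because NRF2 is controlled mainly as a protein, the RNA of *Nfe2l2* and *Keap1* is no measure of its activity, and that activity was not measured here.

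Promoter windows from 250 bases before to 50 after a transcript start (RefSeq, GRCm38.p6) were at hand for 8 of the 10 genes, and none for *Gclc* and *Hmox1*. The ARE core TGACNNNGC, searched on both strands, occurred in a window of *Nfe2l2*, *Srxn1*, *Gclm*, *Txnrd1* and *G6pdx*, in 12.4% of all 32851 windows and in at least 1 window of 3781 of all 27025 genes. These 5 matches are shown with 10 bases on either side on the strand of the gene, with the core in capitals. In 4 of them the core lies on the opposite strand, and the *Txnrd1* match lies in 1 of the gene's 3 windows.
Nfe2l2 chr2:75704885-75704913: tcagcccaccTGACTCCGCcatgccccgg
Srxn1 chr2:152105542-152105570: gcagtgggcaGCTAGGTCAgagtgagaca
Gclm chr3:122245413-122245441: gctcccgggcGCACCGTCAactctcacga
Txnrd1 chr10:82859104-82859132: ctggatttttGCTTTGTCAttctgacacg
G6pdx chrX:74428919-74428947: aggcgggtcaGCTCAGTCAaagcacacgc
The windows of *Slc7a11*, *Nqo1* and *Keap1* held no ARE core, which says only that these letters are not in these windows. *Slc7a11* is also known as a target of ATF4, the factor of the amino acid response, and is shown because it is the member with the largest difference between tissues. Its window held the amino acid response element core TGATGNAA once on each strand, a core found in a window of 4.51% of all genes, and both matches are in capitals.
Slc7a11 chr3:50443643-50443689: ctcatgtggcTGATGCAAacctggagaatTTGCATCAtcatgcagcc
A further motif searched, the AP-1 site TGACTCA, was present in a window of 5.95% of genes, and among the members it was found in *Srxn1* alone, 2 times. It shares its first bases with the ARE core, and no match of the 2 motifs overlapped here. The *Srxn1* match at -45 to -39 from the start is followed by GC, letters that the ARE core as searched does not cover. Other forms of these elements were not searched, so that the match shown for *Srxn1* need not be its only ARE-like stretch. These matches are a description of the letters and say nothing about binding.

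Total estimated counts ran from 29394258 to 40420228 for oral WT libraries, against 11735315 and 20432164 for oral KO libraries. Pancreatic WT libraries held 40964533 to 46134830 counts, and pancreatic KO libraries held 89562790 to 120482829. Depth thus separated the genotypes within each tissue, with KO libraries shallower than WT among oral and deeper among pancreatic tumors. The part of depth in the KO differences was not tested. *Sox2* had 410 to 680 counts in oral WT, 0 and 1 in oral KO, 1111 to 1487 in pancreatic WT and 0 to 2 in pancreatic KO tumors, as the labels state. The 2 oral KO libraries stood apart. Protein-coding genes made up 59.5% of the counts of oral KO tumor 1 and 84.5% of those of oral KO tumor 2, against 85.1% to 91.7% elsewhere, and the 7SL RNA genes *Rn7s1* and *Rn7s2* alone took 16.6% of oral KO tumor 1. All 10 skeletal muscle markers were detected in both oral KO tumors, at summed levels of 5154 and 2802 CPM, against 6.91, 5.02, 7.41 and 485 CPM in the oral WT tumors and at most 5.13 CPM in the pancreas. The 9 macrophage markers summed to 142 and 194 CPM in oral KO against 357 to 659 CPM in oral WT tumors, and the 8 basal keratinocyte markers, detected in every group, summed to 4946 and 4202 CPM against 4650 to 8461 CPM. Single markers of the tumor and its stroma moved as well. The basal keratin gene *Krt15* (log2 fold change -3.11) and the fibroblast genes *Dcn* (-3.40) and *Lum* (-2.09) were called lower in oral KO tumors. The keratin gene *Krt4* (2.08), a keratinocyte differentiation marker, was called higher. *Krt13*, on the same list, lay above every oral WT tumor, at 991 and 939 CPM against 203 to 671 CPM. The 12 keratinocyte differentiation markers summed to 8086 and 2985 CPM in oral KO against 1213 to 6486 CPM in oral WT tumors. Others on the basal, fibroblast and differentiation lists did not follow. *Col1a1*, *Col1a2*, *Col3a1* and *Pdgfrb* lay within their oral WT ranges, and *Pdgfra* lay below. The 7 fibroblast markers summed to 9410 and 9491 CPM in oral KO against 8715 to 19107 CPM in oral WT tumors. The basal marker *Dst* was higher, at 528 and 591 CPM against 213 to 419 CPM. The differentiation marker *Ivl* was lower, at 0.794 and 1.17 CPM against 2.86 to 59.0 CPM. Every oral KO value below is to be read beside these values, whose part in the results was not tested. In bulk tumors, fewer cells of a type and less RNA per cell cannot be told apart.

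Levels are given as CPM, counts brought to a common library size with TMM factors over the 13 tumors, in the order of the tumor numbers, and a gene was called when its adjusted p was under 0.05 and its absolute log2 fold change over 1 (edgeR's quasi-likelihood test, Benjamini-Hochberg adjustment over all genes tested). The plot of levels by tumor shows the pattern of all 10 members. Per kilobase of exon, *Nfe2l2* was the most abundant member in WT tumors of both tissues, at a mean of 38.3 CPM per kilobase in the oral and 46.9 in the pancreatic tumors. *Slc7a11* was the least abundant, at 5.57 and 0.607 CPM per kilobase. The length used joins all annotated exons of a gene, 13922 bases for *Slc7a11*, the longest member. In CPM alone its pancreatic WT mean of 8.46 was the lowest of the members. Its oral WT mean of 77.6 CPM lay above those of *Keap1*, *Gclc*, *Txnrd1*, *Hmox1*, *Srxn1* and *Nqo1* and below those of *Gclm*, *Nfe2l2* and *G6pdx*.

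**Figure D1:**
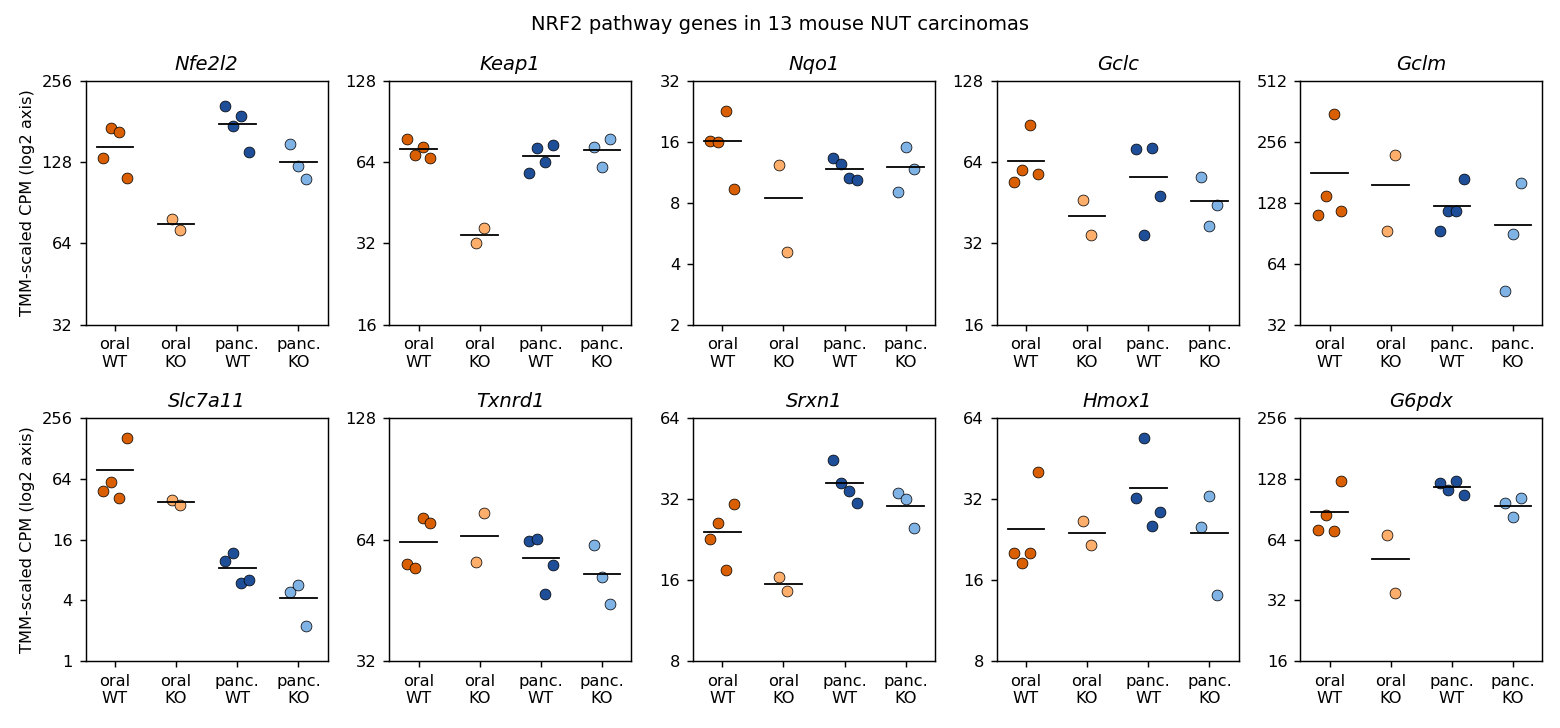
TMM-scaled CPM on a log2 axis of the 10 NRF2 pathway genes, with 1 point per tumor in the 4 groups (panc., pancreatic) and a line at the group mean. *Slc7a11* lies at 41.5 CPM or more in oral WT and at 11.7 CPM or less in pancreatic WT tumors, and *Keap1* has 32.3 and 36.5 CPM in the oral KO libraries and 58.6 CPM or more in all others.

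The regulators come first. *Keap1* (chr9:21229730-21239361, minus strand) had 78.1, 68.3, 73.0 and 66.3 CPM in the oral WT tumors and 32.3 and 36.5 CPM in the oral KO tumors. In the pancreas it had 58.6, 72.2, 64.3 and 74.3 CPM in WT and 72.9, 61.4 and 77.9 CPM in KO tumors. Both oral KO tumors thus lay below every one of the other 11, and the pancreatic groups overlapped. In the oral comparison *Keap1* was 1.97-fold lower in KO tumors (log2 fold change -0.98 ± 0.17 SE, adjusted p = 0.0233), which missed the fold threshold, so that it was not called. In the pancreas the log2 fold change was 0.084 ± 0.13 (adjusted p = 0.803). The difference between the 2 KO effects, tested as an interaction of tissue and genotype in 1 fit of all 13 tumors, was 1.12 ± 0.20 on the log2 scale, as pancreas minus oral (adjusted p = 0.00866), and was called. It was the only member called of 10, where 12.3% of all genes were called in that test. A fit of protein-coding genes alone left out the 7SL RNA together with all other genes that are not protein-coding, and scaling and adjustment were repeated. In that fit the oral log2 fold change of *Keap1* was -0.78 (adjusted p = 0.0698) and the interaction was 0.93 (adjusted p = 0.0203), below the fold threshold. The part of the 7SL RNA alone was not tested. The interaction was called without each of the 13 tumors in turn, at 1.04 to 1.22. Without oral KO tumor 1, oral KO tumor 2, oral WT tumor 1 or oral WT tumor 2, the adjusted p of the oral comparison was 0.0838, 0.0883, 0.0579 and 0.0721. It was called at a log2 fold change of -1.05 in 1 fit of all 13 tumors, at -1.02 with DESeq2 size factors, at -1.06 with no count filter and at -1.001 without oral WT tumor 4.

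*Nfe2l2* (chr2:75675513-75704641, minus strand), which encodes NRF2 itself, had 133, 172, 166 and 111 CPM in oral WT and 79.0 and 71.5 CPM in oral KO tumors. In the pancreas it had 208, 175, 190 and 139 CPM in WT and 150, 124 and 111 CPM in KO tumors. The oral groups did not overlap, and in the pancreas the highest KO tumor exceeded the lowest WT tumor. The oral log2 fold change was -0.87 ± 0.24 (adjusted p = 0.0504) and the pancreatic one -0.46 ± 0.16 (adjusted p = 0.218), so that neither passed the test. With DESeq2 and apeglm in place of edgeR the adjusted p of the oral comparison was 0.0133, with protein-coding genes alone it was 0.120, and in neither was the gene called. The interaction was 0.48 ± 0.28 (adjusted p = 0.238).

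The count ratio of *Nfe2l2* to *Keap1* within a tumor does not depend on library scaling and is given as a description. It was 1.70, 2.51, 2.28 and 1.68 in oral WT, 2.45 and 1.96 in oral KO, 3.54, 2.42, 2.96 and 1.88 in pancreatic WT and 2.06, 2.02 and 1.42 in pancreatic KO tumors. The oral KO values lay within the range of the oral WT values, and in the pancreas all but the lowest WT tumor exceeded every KO tumor.

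Glutathione synthesis starts with cystine. *Slc7a11* (chr3:49892526-50443614, minus strand) encodes xCT, the subunit of the cystine-glutamate exchanger that carries the transport. It had 48.0, 59.1, 41.5 and 162 CPM in oral WT tumors and 9.84, 11.7, 5.99 and 6.33 CPM in pancreatic WT tumors. The lowest oral WT tumor lay above the highest pancreatic one, and oral WT tumor 4 stood far above its group. *Slc7a11* was 9.19-fold lower in pancreatic than in oral WT tumors (log2 fold change -3.20 ± 0.49, adjusted p = 0.00305) and was the only member called between tissues, where 16.5% of all genes were called. Without oral WT tumor 4 the log2 fold change was -2.55 (adjusted p = 7.24e-04), and the call held under every alternative tried. The KO tumors, which the test did not use, had 39.3 and 35.2 CPM in the oral mucosa and 4.83, 5.64 and 2.25 CPM in the pancreas, again without overlap between tissues. The KO to WT difference was -0.98 ± 0.59 in the oral (adjusted p = 0.277) and -0.99 ± 0.38 in the pancreatic comparison (adjusted p = 0.257), and neither passed the test. The oral value rested on oral WT tumor 4 and was -0.32 without it (adjusted p = 0.338). The interaction was 0.065 ± 0.72 (adjusted p = 0.965) and -0.58 without oral WT tumor 4 (adjusted p = 0.406), an error too wide to show that the effects are alike.

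*Slc3a2* encodes the heavy chain that carries xCT to the membrane and also serves other amino acid transporters. It had 147, 148, 172 and 154 CPM in oral WT and 144, 198, 102 and 143 CPM in pancreatic WT tumors (log2 fold change -0.081 ± 0.18, adjusted p = 0.792). The tissue groups overlapped for the heavy chain but not for xCT. In the oral KO tumors *Slc3a2* had 74.7 and 96.5 CPM, below every oral WT tumor (log2 fold change -0.78 ± 0.19, adjusted p = 0.0379), and was not called. In the pancreatic KO tumors it had 116, 131 and 115 CPM, within the pancreatic WT range. The count ratio of *Slc7a11* to *Slc3a2* was 0.326, 0.400, 0.242 and 1.05 in oral WT, 0.527 and 0.364 in oral KO, 0.0684, 0.0590, 0.0585 and 0.0444 in pancreatic WT, and 0.0416, 0.0430 and 0.0196 in pancreatic KO tumors. As a description, the 7 pancreatic tumors all lay below the 6 oral ones. Among marker sets that move with tissue, the 7 fibroblast markers, all detected in every group, summed to 8715 to 19107 CPM in oral WT and 1138 to 2229 CPM in pancreatic WT tumors, and the 8 basal keratinocyte markers, also all detected, to 4650 to 8461 CPM in oral WT and 8952 to 16181 CPM in pancreatic WT tumors. Of the 5 adipocyte markers *Fabp4* alone differed in level, at 101 to 577 CPM in oral WT and 1478 to 2961 CPM in pancreatic WT tumors, while *Plin1*, *Adipoq*, *Cfd* and *Lep* were at or near 0 in all of them. Their part in the difference of *Slc7a11* was not tested.

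*Gclc* and *Gclm* encode the catalytic and modifier subunits of glutamate-cysteine ligase, the limiting enzyme of glutathione synthesis. *Gclc* (chr9:77754535-77794485, plus strand) had 54.0, 59.7, 88.1 and 57.7 CPM in oral WT, 46.4 and 34.4 CPM in oral KO, 71.5, 34.5, 72.3 and 48.1 CPM in pancreatic WT and 56.7, 37.0 and 44.5 CPM in pancreatic KO tumors. The oral groups did not overlap, yet the oral log2 fold change of -0.61 ± 0.28 missed the test (adjusted p = 0.164), and the pancreatic one was -0.28 ± 0.27 (adjusted p = 0.668).

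*Gclm* (chr3:122245557-122270732, plus strand) had 112, 139, 350.4 and 116 CPM in oral WT, 93.2 and 220.2 CPM in oral KO, 93.2, 117, 117 and 169 CPM in pancreatic WT and 47.1, 89.5 and 160.5 CPM in pancreatic KO tumors. Oral WT tumor 3 and oral KO tumor 2 were high, and KO and WT tumors overlapped in both tissues. Its log2 fold change was -0.14 ± 0.59 in the oral and -0.30 ± 0.40 in the pancreatic comparison (adjusted p = 0.888 and 0.763), and both signs turned when 1 tumor was left out, to 0.44 without oral WT tumor 3 and to 0.042 without pancreatic KO tumor 1. The count ratio of *Gclm* to *Gclc* was 2.07, 2.32, 3.98 and 2.01 in oral WT, 2.01 and 6.40 in oral KO, 1.30, 3.38, 1.62 and 3.51 in pancreatic WT and 0.832, 2.42 and 3.60 in pancreatic KO tumors. The RNAs of the subunits were thus in no fixed proportion, and the ratio overlapped between all groups. Of the 31-base sequences of *Gclm*, 5.61% also occur in other genes, *Ppia* first, so that its counts are slightly less certain.

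**Figure D2:**
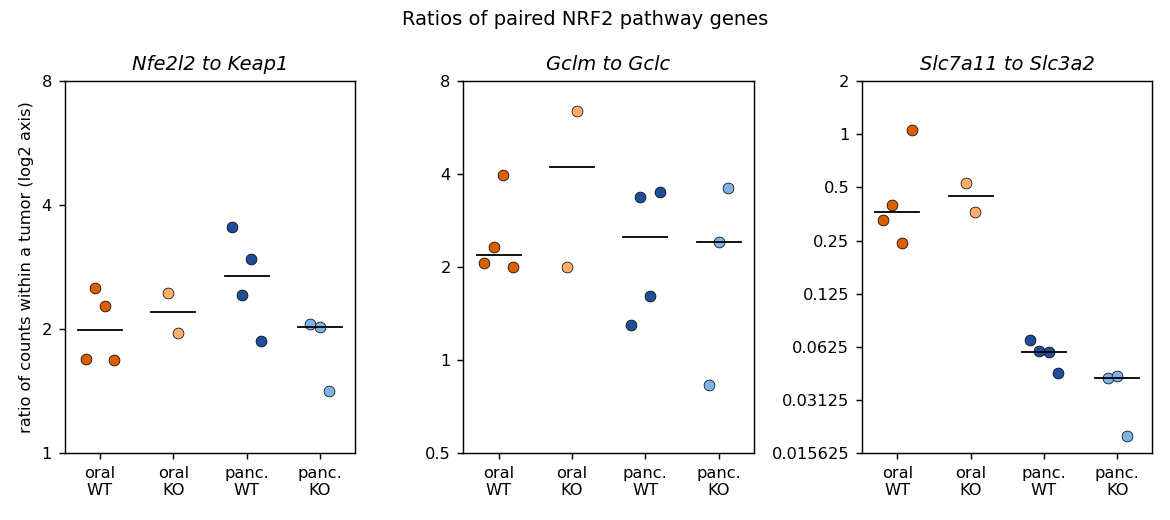
Ratios of estimated counts within a tumor on a log2 axis for 3 pairs of NRF2 pathway genes, with 1 point per tumor in the 4 groups and a line at the group median. The ratio of *Slc7a11* to *Slc3a2* separates the tissues, from 0.242 to 1.05 in oral and from 0.0196 to 0.0684 in pancreatic tumors, whereas the other ratios overlap between groups.

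The thioredoxin system reduces oxidized proteins beside glutathione. *Txnrd1* (chr10:82833951-82897712, plus strand) encodes cytosolic thioredoxin reductase and lay at 55.8, 54.4, 72.3 and 70.3 CPM in oral WT, 56.3 and 74.5 CPM in oral KO, 63.6, 64.2, 46.9 and 55.3 CPM in pancreatic WT and 62.1, 51.7 and 44.4 CPM in pancreatic KO tumors. All 4 groups overlapped, and the log2 fold change was 0.12 ± 0.21 in the oral and -0.12 ± 0.16 in the pancreatic comparison (adjusted p = 0.708 and 0.771).

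*Srxn1* (chr2:152105516-152111376, plus strand), which encodes the enzyme that restores overoxidized peroxiredoxins, had 22.8, 26.0, 17.5 and 30.5 CPM in oral WT, 16.5 and 14.6 CPM in oral KO, 44.7, 36.8, 34.4 and 30.9 CPM in pancreatic WT and 33.6, 32.1 and 25.0 CPM in pancreatic KO tumors. Every pancreatic WT tumor lay above every oral WT tumor, by a small margin, and both oral KO tumors lay below all others. The tissue difference of 0.60 ± 0.19 on the log2 scale (adjusted p = 0.0519) and the KO differences of -0.56 ± 0.27 in the oral (adjusted p = 0.177) and -0.27 ± 0.16 in the pancreatic comparison (adjusted p = 0.469) did not pass the test.

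*Nqo1* (chr8:107388225-107403206, minus strand) encodes a quinone reductase and is often read as a marker of NRF2 activity. It had 16.1, 16.1, 22.8 and 9.40 CPM in oral WT, 12.3 and 4.57 CPM in oral KO, 13.3, 12.4, 10.6 and 10.4 CPM in pancreatic WT and 9.10, 15.1 and 11.8 CPM in pancreatic KO tumors. Oral KO tumor 2 was the lowest of the 13, from 117 counts, and oral KO tumor 1 lay within the oral WT range. The log2 fold change was -0.86 ± 0.51 in the oral comparison (adjusted p = 0.264), 0.046 ± 0.21 in the pancreatic one (adjusted p = 0.940) and -0.46 ± 0.25 between tissues (adjusted p = 0.223). The oral value rested on 1 tumor, being -1.76 without oral KO tumor 1 and -0.27 without oral KO tumor 2.

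*Hmox1* (chr8:75093621-75100589, plus strand) encodes heme oxygenase 1, which macrophages also express. It had 20.2, 18.5, 20.2 and 40.4 CPM in oral WT, 26.4 and 21.6 CPM in oral KO, 32.2, 54.0, 25.5 and 28.6 CPM in pancreatic WT and 25.1, 32.8 and 14.1 CPM in pancreatic KO tumors. All groups overlapped, and oral WT tumor 4 and pancreatic WT tumor 2 were the highest of theirs. Its log2 fold change was 0.033 ± 0.36 in the oral (adjusted p = 0.958) and -0.54 ± 0.35 in the pancreatic comparison (adjusted p = 0.499), while the summed macrophage markers, all 9 detected in each group, were lower in both oral KO tumors than in any oral WT tumor. Pancreatic KO macrophage sums ran from 271 to 701 CPM, around the pancreatic WT range of 380 to 468 CPM, and the part of these cells in the values of *Hmox1* was not tested.

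*G6pdx* (chrX:74409483-74429194, minus strand) encodes glucose-6-phosphate dehydrogenase, which supplies NADPH through the pentose phosphate pathway. It had 71.2, 84.5, 70.5 and 125 CPM in oral WT, 67.7 and 34.7 CPM in oral KO, 122, 113, 124 and 106 CPM in pancreatic WT and 96.7, 82.6 and 102 CPM in pancreatic KO tumors. In both tissues every KO tumor lay below every WT tumor. The log2 fold change was -0.69 ± 0.36 in the oral (adjusted p = 0.210) and -0.29 ± 0.11 in the pancreatic comparison (adjusted p = 0.257), neither of which passed the test. The oral value was -1.29 without oral KO tumor 1, -0.26 without oral KO tumor 2 and -0.46 without oral WT tumor 4. The gene is X-linked, and the tumors came from both sexes, since 7 of 13 tumors had *Xist* at 1797 CPM or more and the other 6 had *Ddx3y* at 56.1 CPM or more, with each kind present in each group. Of its 31-base sequences 12.6% are shared, mostly with the retrogene *G6pd2*. Between tissues the difference was 0.40 ± 0.19 (adjusted p = 0.159), and without oral WT tumor 4, the highest oral tumor, it was 0.62 (adjusted p = 0.00888), still below the fold threshold.

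Seen as a group, none of the 10 members was called in the oral comparison, where 11.7% of all 22342 genes were, and none in the pancreatic comparison, where 0.629% of 24653 genes were. At an adjusted p under 0.05 and any fold change, *Keap1* alone passed in the oral comparison, 1 of 10 where 13.8% of all genes passed. At an unadjusted p under 0.05, *Keap1* and *Nfe2l2* passed in the oral comparison, against 35.4% of all genes, and *Nfe2l2*, *Slc7a11* and *G6pdx* in the pancreatic one, against 15.9%. DESeq2 with apeglm called none of the members in either comparison. Over all genes it called 3514 of 22342 in the oral and 890 of 24653 in the pancreatic comparison. Of the 10 log2 fold changes, 8 lay below 0 in each tissue, with a median of -0.65 in the oral comparison against -0.0030 over all genes, and of -0.29 in the pancreatic comparison against 0.022. The oral median was -0.41 without oral KO tumor 2, -0.89 without oral KO tumor 1 and -0.46 with protein-coding genes alone, where 7 members lay below 0. Beside the pancreatic values, the 12 keratinocyte differentiation markers, all detected, summed to 4087 to 8237 CPM in WT and 559 to 2317 CPM in KO tumors, and the 9 acinar markers to 307 CPM in pancreatic KO tumor 3 against at most 16.4 CPM in the other pancreatic tumors. Their part in the member values was not tested. Between WT tumors of the 2 tissues the median was -0.11, with 6 of 10 members lower in the pancreas.

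**Figure D3:**
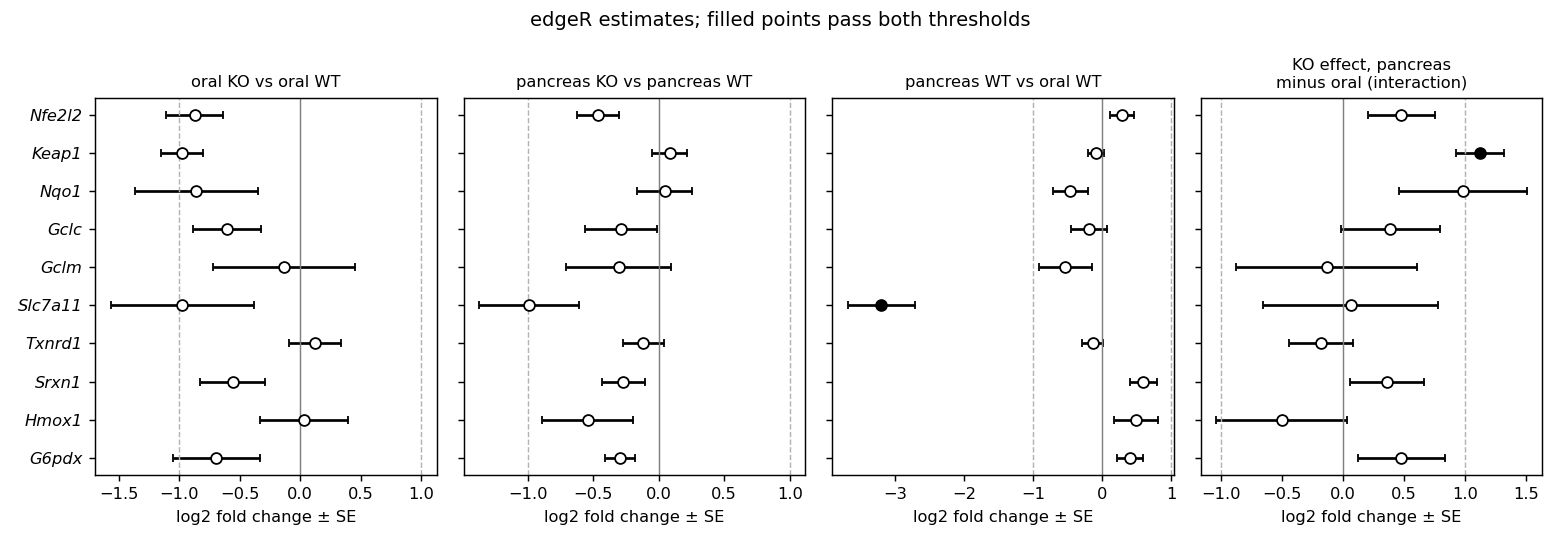
Log2 fold changes with their standard errors from edgeR for the 10 members in the 3 comparisons and for the interaction, with dashed lines at the fold threshold of 1 and filled points for called genes. Only *Slc7a11* between tissues (-3.20) and *Keap1* in the interaction (1.12) are filled.

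The other pathway genes form a list of 50 regulators, partners and enzymes. In the oral comparison 48 had enough counts, 39 of them lay below 0, 4 were called lower and 0 higher, and the median was -0.60. This share is below the 11.7% of all genes, of which 1968 were called higher and 646 lower. *Mgst1*, a microsomal glutathione transferase, had 27.5, 42.9, 29.1 and 45.0 CPM in oral WT and 9.53 and 3.59 CPM in oral KO tumors, a fall of 5.24-fold (log2 fold change -2.39 ± 0.47, adjusted p = 0.0265). *Sod1*, the cytosolic superoxide dismutase, had 64.4, 66.8, 89.7 and 60.7 CPM in oral WT and 25.7 and 35.2 CPM in oral KO tumors (log2 fold change -1.14 ± 0.25, adjusted p = 0.0314). In both genes the KO tumors lay below every WT tumor. The glutathione transferase *Gstp1* (log2 fold change -1.08, adjusted p = 0.0404), which shares 38.5% of its 31-base sequences with other genes, mostly *Gstp2*, and the carbonyl reductase *Cbr3* (log2 fold change -1.51, adjusted p = 0.0440) were the other 2. With protein-coding genes alone none of the 4 was called and the median was -0.40. In that setting 27 of 16352 genes tested were called, in place of 2614 of 22342. The count of 4 was also 0 without oral KO tumor 1, oral KO tumor 2, oral WT tumor 1, oral WT tumor 2 or oral WT tumor 3.

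By role, all 5 heme and iron genes, 9 of 10 detoxification genes, 4 of 5 genes of NADPH supply, 5 of 6 thioredoxin and peroxide genes, 10 of 14 glutathione genes and 6 of 8 regulators and partners of NRF2 lay below 0 in the oral comparison. With protein-coding genes alone 35 of the 48 lay below 0 in place of 39, and roles were not counted in that setting. In the pancreas 0 of the 50 genes were called by edgeR, against 0.629% of all genes. An unadjusted p under 0.05 was found for 12 of the 50, against 15.9% of all genes. Of the 50, 36 lay below 0, with a median of -0.20 against 0.022 over all genes. The smallest adjusted p-values were those of the ferritin heavy chain gene *Fth1* (log2 fold change -1.32 ± 0.32, adjusted p = 0.105) and of the peroxiredoxin gene *Prdx6* (-0.40 ± 0.10, adjusted p = 0.126). *Fth1* had 1951, 1521, 1116 and 812 CPM in pancreatic WT and 583, 634 and 393 CPM in pancreatic KO tumors, without overlap. DESeq2 with apeglm called *Fth1* alone of the 50, and 890 of all 24653 genes.

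Between tissues 7 of 49 other pathway genes were called higher and 1 lower in pancreatic WT tumors, with a median of 0.28. Over all genes 16.5% were called, 1677 higher and 2155 lower, so that the share of the list is close to the background. *Txn1*, thioredoxin itself, had 157, 125, 155 and 141 CPM in oral WT and 650, 1341, 768 and 657 CPM in pancreatic WT tumors, 5.91-fold higher (log2 fold change 2.56 ± 0.25, adjusted p = 6.58e-04). The glutathione transferase gene *Gsta4* ranged over 33.1 to 66.4 CPM in oral WT and 186 to 361 CPM in pancreatic WT tumors, 5.49-fold higher (adjusted p = 8.73e-04). The groups did not overlap in either gene. *Fth1* was 3.37-fold higher (adjusted p = 0.00243), the small MAF gene *Maff* 4.79-fold (adjusted p = 0.00282) and *Trim16* 5.58-fold (adjusted p = 0.00512). *Gstm5*, another glutathione transferase gene, was 2.60-fold lower (adjusted p = 0.0216), and was not called without oral WT tumor 2 or pancreatic WT tumor 1. Thioredoxin was thus higher and xCT lower in the pancreatic WT tumors, with *Txnrd1*, the reductase of thioredoxin, at 46.9 to 72.3 CPM in the WT tumors of both tissues.

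**Figure D4:**
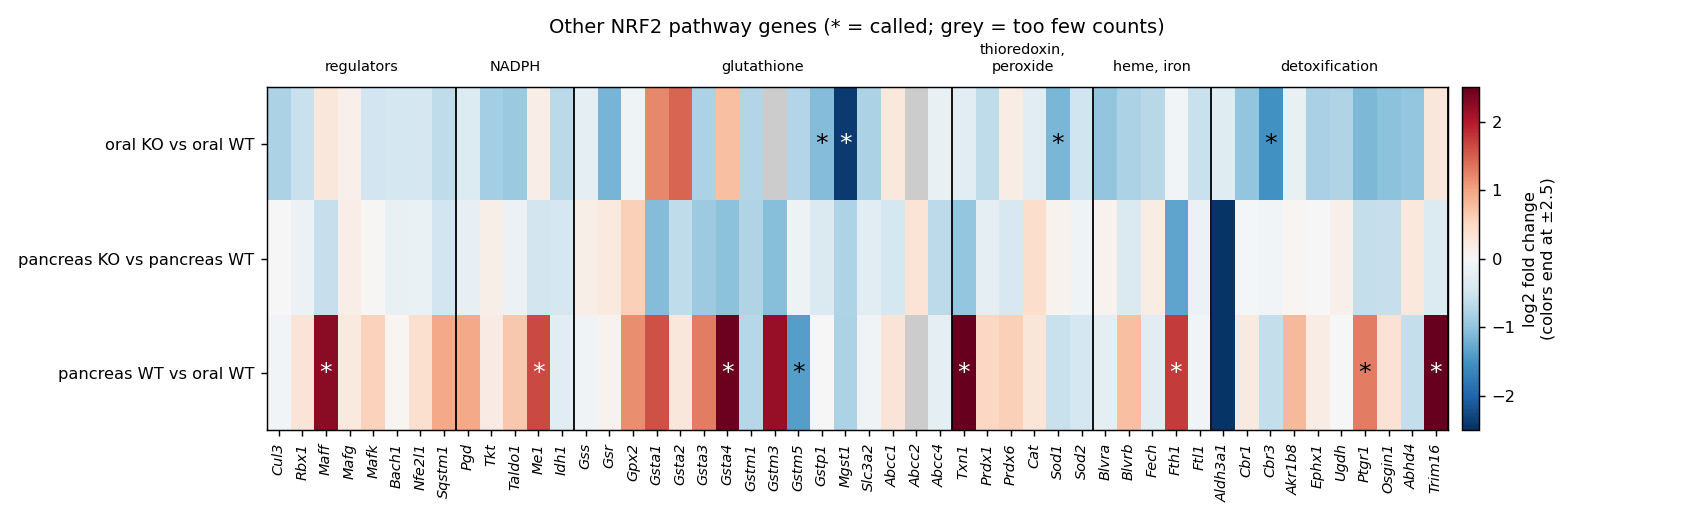
Log2 fold changes from edgeR of the 50 other NRF2 pathway genes, grouped by role, in the 3 comparisons, with red for higher and blue for lower in the group named first. Stars mark called genes, 4 in the oral, 0 in the pancreatic and 8 in the tissue comparison, grey marks genes with too few counts, and colors end at 2.5 in either direction.

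In the interaction 6 of the 50 other genes were called, a share close to the 12.3% of all genes. In all 6 the log2 fold change of KO against WT was higher in the pancreas than in the oral mucosa. Over all genes 1254 were called in that direction and 1914 in the other. The median was 0.46 against 0.028 over all genes, and it was 0.26 with protein-coding genes alone and 0.25 without oral KO tumor 2. *Sod1* (1.28 ± 0.28, adjusted p = 0.0161), *Abhd4* (1.30 ± 0.31, adjusted p = 0.0197) and the biliverdin reductase gene *Blvra* (1.15 ± 0.30, adjusted p = 0.0287) led them. *Sod1* had 39.0, 47.6, 42.3 and 61.7 CPM in pancreatic WT and 48.8, 50.9 and 51.2 CPM in pancreatic KO tumors, so that the pancreatic groups overlapped where the oral groups did not. The members had a median of 0.38, which was 0.17 with protein-coding genes alone, 0.18 with at least 10 counts in every tumor, 0.23 without oral KO tumor 2, and 0.24 without oral WT tumor 4 or pancreatic KO tumor 1. With protein-coding genes alone, and with at least 10 counts in every tumor, *Sod1* and *Abhd4* were the 2 other genes called. Without oral KO tumor 1 neither of them was called, and the 2 calls were *Cbr3* and *Mgst1*. The count was also 2 without pancreatic KO tumor 3 or pancreatic WT tumor 3, and 3 without oral WT tumor 2, oral WT tumor 3, pancreatic WT tumor 1 or pancreatic WT tumor 2. Without pancreatic KO tumor 1, 3 genes were called in the direction of the 6 and 2 in the other. Without pancreatic WT tumor 4 these counts were 7 and 1.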

How the data were processed

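RNA of 13 tumors was sequenced by the authors after depletion of ribosomal RNA with a stranded kit. They trimmed reads with Trim Galore 0.6.10, quantified them with kallisto 0.50.0 on GENCODE M23 transcripts (GRCm38) with the strand setting and summed them per gene with tximport. The estimated counts per gene were deposited by the authors without scaling, and 27.3% of the values are not whole. Of 56085 genes, 753 rows are blank. Symbols, positions and exon lengths came from GENCODE M21 (55141 identifiers matched), and groups from the sample labels.

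After rounding, the values were fitted with edgeR 4.0.16 in R 4.3.3 (TMM, robust quasi-likelihood fit), with a minimum of 10 counts in 2 or more fitted tumors. Comparisons used the groups named, and the interaction all 13 tumors. Pancreatic and oral KO comparisons share their WT tumors with the tissue comparison. Alternatives were DESeq2 1.42.0 with apeglm 1.24.0 (the authors' method), DESeq2 size factors, other filters, tumor number as a block, 1 fit of all tumors, protein-coding genes alone and leaving out each tumor. The scripts were tested on simulated data. Promoter windows were searched for the 3 motifs as exact letters on both strands.

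The members, the list of 50 further genes, the marker lists and the tests were chosen with earlier results of these data known. All members are named, of the other pathway genes up to 5 called per comparison and direction with the smallest adjusted p (where none is called, the 2 smallest), and genes most like *Nqo1* over the tumors. *Slc3a2* and *Txnrd1* beside *Txn1* were singled out for their biochemical partners, and *Ptgr1* and *Me1*, also called between tissues, fall outside that rule. Depth limits precision through the total counts, and the largest correlation between tumors was 0.978, with no identical columns.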

Additional observations from a re-analysis of the deposited data

Results flagged for a closer look

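In groups of 4 tumors, a tumor stood apart from the other 3 in 4 of the 20 groups of member values examined. The cutoff gives about 1 in 20 by chance for independent, normally distributed values. The 20 groups share the same tumors, and all 4 cases came from oral WT tumors 3 and 4, so that no excess over chance can be read from the count. In oral WT tumor 3, *Gclm* was at 350.4 CPM and *Gclc* at 88.1 CPM, so that both subunits of glutamate-cysteine ligase were highest in the same tumor of their group. In oral WT tumor 4, *Slc7a11* was at 162 CPM and *Hmox1* at 40.4 CPM, and this tumor also had the highest *G6pdx* and the lowest *Nfe2l2* and *Nqo1* of the oral WT tumors, and skeletal muscle markers summing to 485 CPM against at most 7.41 CPM in the other 3. The 12 keratinocyte differentiation markers were also highest in sum in oral WT tumor 4, at 6486 CPM against 1213 to 3698 CPM in the other oral WT tumors. The part of muscle or keratinocyte RNA in these values was not tested. The KO effect on *Keap1* differed between tissues in the interaction test, by 1.12 on the log2 scale as pancreas minus oral.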

How the results depend on the processing

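Of 610 recomputed values of 40 results, 571 kept direction and side of the threshold, 2 lost and 4 gained a call, and 33 values of 9 results that passed no test turned sign; the cause was not tested. The call of *Slc7a11* between tissues held throughout (-3.41 to -2.55). Over all genes, calls in the oral test ranged from 27 of 16352 (protein-coding genes alone) to 5082 of 25836 (1 fit of all tumors). They ranged from 10 to 890 in the pancreatic, 2431 to 4147 in the tissue and 791 to 4297 in the interaction test. The number of genes tested differed between settings.

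*Keap1* in the oral comparison was called with 1 fit of all 13 tumors (-1.05), DESeq2 size factors (-1.02) and no count filter (-1.06), and without single tumors lay between -1.03 and -0.91, called without oral WT tumor 4 alone. Members called there were 1 under those 3 settings, and 0 to 1 without single tumors. The *Keap1* interaction was 0.94 with at least 10 counts in every tumor and 0.93 with protein-coding genes alone, so that members called were 0 in both.

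Other pathway genes called in the oral comparison were 9 in 1 fit of all tumors, 7 without filter, 0 with protein-coding genes alone, 0 with the replicate block and 0 to 5 without single tumors. In the pancreas they were 1 with DESeq2 and apeglm and 3 with the replicate block, and in the interaction 2 with the strict filter, 2 with protein-coding genes alone, 1 with the replicate block and 2 to 8 without single tumors.

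Signs turned for *Gclm* in the oral comparison with protein-coding genes alone (0.079) and the replicate block (0.30), and for *Hmox1* there with 1 fit (-0.049), DESeq2 size factors (-0.011), DESeq2 (-0.0071) and no filter (-0.061). They also turned for *Nqo1* in the pancreas with the replicate block (-0.028) and for the *Slc7a11* interaction with the strict filter (-0.12) and protein-coding genes alone (-0.14). Without single tumors, *Gclm* ran from -0.83 to 0.44 in the oral, -0.85 to 0.042 in the pancreatic and -0.75 to 0.017 in the tissue comparison and from -0.69 to 0.61 in the interaction. Likewise *Hmox1* (-0.14 to 0.38) and *Txnrd1* (-0.054 to 0.29) in the oral comparison, *Nqo1* in the pancreas (-0.14 to 0.22) and the interactions of *Slc7a11* (-0.58 to 0.36) and *Txnrd1* (-0.32 to 0.037) crossed 0.

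The labels do not say whether same-numbered tumors form pairs. Deviations of same-numbered tumors from their group means correlated at -0.080 and -0.038 in the oral and from -0.069 to 0.32 in the pancreatic comparison. The deviations of the 2 oral KO tumors mirror each other, so that the 2 oral values are not independent. Pairing was neither shown nor excluded. Under the replicate block *Keap1* was -0.99 in the oral comparison (adjusted p = 0.148). Leaving out an oral KO tumor leaves 1, which is assumed to vary like the WT tumors, and the 2 oral KO libraries, the shallowest, limit every oral comparison.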

Other observations

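The genes whose levels most resembled *Nqo1* over the 13 tumors, after each group's mean was subtracted, were *Csk* (r = 0.922), *Mms19* (r = 0.920) and *P3h4* (r = 0.910), the highest of 9926 protein-coding genes at a mean of at least 10 CPM. No member was among them, since members were left out of the ranking. The values are a description, the tumors share the library depth and composition described above, and no p is given.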
